A study of Mus musculus with 4 samples.

Results

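The cells described here were bone marrow αLPs, a sorted progenitor population (lineage marker-negative, CD127+, FLT3-negative, LPAM-1+), that expressed *Id2*, *Zbtb16* and *Bcl11b* together and lacked *Il1rl1*, *Cd3e*, *Ccr6* and *Mki67*. They had been named early ILC2-committed cells, and are called *Zbtb16*+ *Bcl11b*+ cells below after the genes they were chosen by. A cell's value for a gene was the natural log of 1 plus its reads per 10000, and membership required a value of at least 1 for the first 3 genes and under 1 for the other 4. Of 8663 cells listed in 2 experiments (1033 and 7630), 8322 had a genotype hashtag, enough reads and at most 10% mitochondrial reads, 7013 of these had an *Id2* value of at least 1, and 212 met the whole rule. All mice were C57BL/6. WT mice were compared with G3SEKO mice, in which CRISPR-Cas9 had removed the tandem super-enhancers downstream of *Gata3* (2 lines were made, and which one supplied these cells is not given in the sources used here). The cells came from young adult male and female mice, those of several mice were marked with hashtag antibodies against MHC class I and sequenced together by TAS-Seq, a bead-based single-cell RNA-seq method, and each experiment held both genotypes in a single mRNA library.

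Innate lymphoid cells (ILCs) arise from lymphoid progenitors that switch on *Id2*, an inhibitor of E proteins, and pass through a stage marked by *Zbtb16*, which encodes the zinc-finger factor PLZF. Group 2 ILCs (ILC2s) are tissue lymphocytes that make type 2 cytokines. Their formation requires the transcription factors GATA3, RORα, TCF-1 and BCL11B, and their mature form in the marrow carries ST2, the IL-33 receptor chain encoded by *Il1rl1*. *Il17rb* encodes a chain of the IL-25 receptor, *Icos* a co-stimulatory receptor, and *Pdcd1* the inhibitory receptor PD-1, which marks ILC progenitors.

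On GRCm38, *Zbtb16* lies on the minus strand of chromosome 9 from 48654297 to 48836222, and *Bcl11b* on the minus strand of chromosome 12 from 107910403 to 108003602. *Il17rb* occupies chromosome 14 from 29996135 to 30008896 (minus strand). *Icos* and *Pdcd1* are both on chromosome 1, from 60977927 to 61000320 (plus strand) and from 94038305 to 94052553 (minus strand). *Gata3*, whose distal enhancers were deleted in G3SEKO mice, is on the minus strand of chromosome 2 from 9857078 to 9890034. *Il1rl1* (chromosome 1, 40429570 to 40465415) and *Il18r1* (chromosome 1, 40465552 to 40500854) are neighbours on the plus strand. The counts are per gene, so no exon or UTR is resolved.

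The experiments differed greatly in depth, and 1 label was in doubt. The *Zbtb16*+ *Bcl11b*+ cells had median totals of 663713 reads (WT) and 933343 reads (G3SEKO) in experiment 1, against 51432 and 61918 reads in experiment 2. Reads were counted without collapsing copies of a molecule, so intervals cover counting error only, and a single cell could supply most reads of a gene. Hashtags A0302 and A0303 of experiment 2 are both labelled WT, although its mRNA library is labelled as holding both genotypes. A0303 was taken as G3SEKO by the rule that chose the cells, so all G3SEKO values of experiment 2 depend on that reading. In experiment 1 each genotype had 3 hashtags. The labels do not say that a hashtag was 1 mouse, and the authors used more mice of each genotype than hashtags in both experiments. They also took marrow from more kinds of bone in experiment 2. The experiment was therefore the replicate. A p-value measures how the difference within an experiment varied over the 2 experiments, with variances moderated across genes. The 2 libraries shared 11 cell barcodes, none of them in these 212 cells, and all 212 carried at least 2 times more of their own hashtag than of the next, each scaled to its total over the listed cells.

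The *Zbtb16*+ *Bcl11b*+ cells numbered 33 WT and 9 G3SEKO cells in experiment 1 and 69 WT and 101 G3SEKO cells in experiment 2. As a share of *Id2*-expressing αLPs they made up 4.85% of 681 WT cells (exact 95% binomial interval 3.36 to 6.74) and 20.9% of 43 G3SEKO cells (10.04 to 36.0) in experiment 1. In experiment 2 the shares were 1.35% of 5130 WT cells (1.05 to 1.70) and 8.71% of 1159 G3SEKO cells (7.15 to 10.5). The G3SEKO share was thus 4.32-fold the WT share in experiment 1 and 6.48-fold in experiment 2. The intervals are over cells, which are not replicates of a genotype, and were not used as a test. The neighbouring gates also had higher G3SEKO shares, by 2.77-fold and 7.38-fold for ILC progenitors and by 2.21-fold and 10.6-fold for *Zbtb16*-low precursors in experiments 1 and 2. By hashtag in experiment 1, the WT shares were 3.86%, 5.17% and 5.79%, and the G3SEKO shares were 28.6%, 14.3% and 13.3%, the latter from only 6, 1 and 2 cells. No test was made over the hashtags. 

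**Figure D1:**
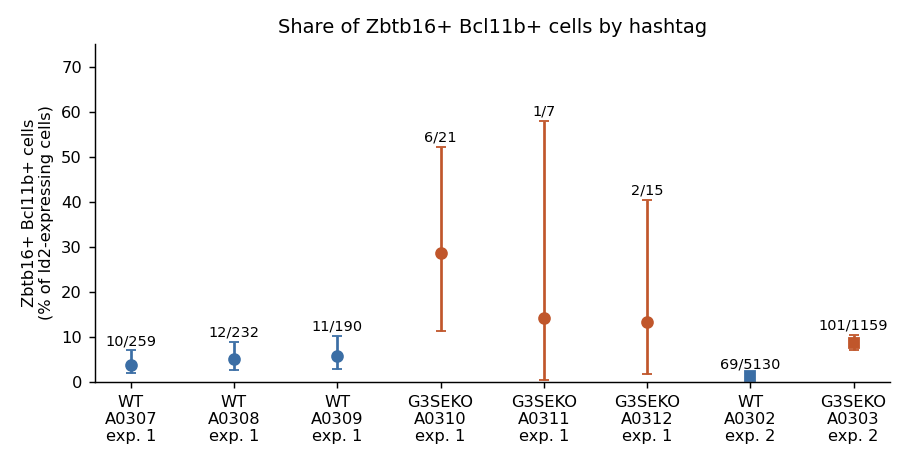
Share of *Zbtb16*+ *Bcl11b*+ cells among *Id2*-expressing αLPs for each hashtag (y axis, percent, with the exact 95% binomial interval), WT in blue and G3SEKO in orange, circles for experiment 1 and squares for experiment 2. Each WT point lies below each G3SEKO point of its own experiment, with 10 of 259 to 11 of 190 cells in the WT hashtags of experiment 1 and 101 of 1159 cells in hashtag A0303.

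The rest of the *Id2*-expressing cells also differed between the genotypes, and whether this bears on the higher share was not tested. ST2+ ILC2s (*Id2* and *Il1rl1* at 1 or more, *Il18r1* under 1) made up 52.9% and 65.0% of the *Id2*-expressing WT cells, but 1.12% of the G3SEKO cells of experiment 2 (13 of 1159). In experiment 1 there were 0 among 43 G3SEKO cells, with an exact upper bound of 8.22%. On a narrower denominator the G3SEKO share was the higher in experiment 1 and the lower in experiment 2. Among *Zbtb16*+ cells of either kind, that is, the *Zbtb16*+ *Bcl11b*+ cells plus the ILC progenitors (the same limits but *Bcl11b* under 1), the *Bcl11b*+ cells were 34.4% in WT (33 of 96, 24.98 to 44.8) and 45.0% in G3SEKO (9 of 20, 23.1 to 68.5) in experiment 1. In experiment 2 they were 30.3% in WT (69 of 228, 24.4 to 36.7) and 27.6% in G3SEKO (101 of 366, 23.1 to 32.5). These intervals are again over cells, which are not replicates of a genotype, so whether this share differed between the genotypes was not tested. The 3 WT hashtags of experiment 1 gave 30.3%, 34.3% and 39.3%.

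The genes of the rule gave the following levels, which are a description of the choice and not a result. The median value over the 212 cells was 3.25 for *Id2*, 2.04 for *Zbtb16* and 2.25 for *Bcl11b*. The lowest *Zbtb16* value inside the limit was 1.01 and the highest outside it, among cells that met every other limit, was 0.996. For *Bcl11b* these values were 1.01 and 0.999, and 648 cells failed on *Zbtb16* alone and 498 on *Bcl11b* alone. Of the cells inside the limits, 21 lay within 0.2 of the *Zbtb16* limit and 22 within 0.2 of the *Bcl11b* limit, so the limits cut through a continuous range of values. The median *Il1rl1* value was 0 over all 212 cells.

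The genes attached to the name of these cells but not used by the rule were each present in only part of them. *Il17rb* reached a value of 1 in 10 of 33 WT cells (30.3%, 15.6 to 48.7) and 5 of 9 G3SEKO cells in experiment 1, and in 34 of 69 WT cells (49.3%, 37.0 to 61.6) and 49 of 101 G3SEKO cells (48.5%) in experiment 2. *Icos* did so in 15 of 33 and 7 of 9 cells in experiment 1 and in 40 of 69 and 66 of 101 cells in experiment 2. *Pdcd1* did so in 26 of 33 WT cells (78.8%, 61.1 to 91.0), 6 of 9 G3SEKO cells, 33 of 69 WT cells (47.8%, 35.6 to 60.2) and 71 of 101 G3SEKO cells (70.3%, 60.4 to 79.0). *Gata3* did so in 31 of 33, 8 of 9, 51 of 69 and 70 of 101 cells in that order. As a background level for *Pdcd1*, whose protein the study takes ST2+ ILC2s to lack, 2 of 360 and 44 of 3332 WT ST2+ ILC2s reached a *Pdcd1* value of 1 (0.556% and 1.32%), at median totals of 359081 and 30527 reads. With each cell thinned to the minimum total of experiment 2, so that total reads per cell were equal, at least 1 read of *Il17rb* was found in 36.4% and 49.3% of the WT cells of experiments 1 and 2, and at least 1 read of *Pdcd1* in 87.9% and 49.3%.

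**Figure D2:**
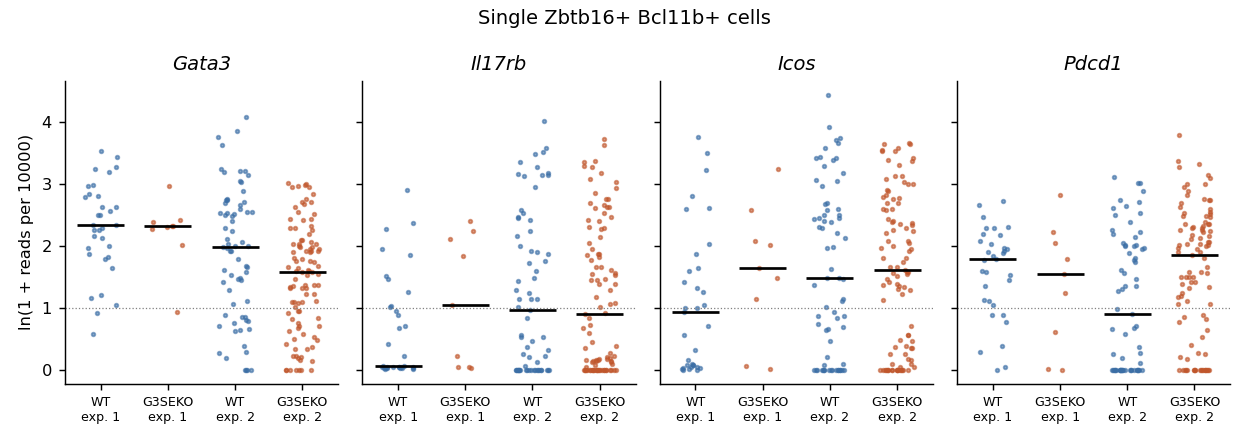
Each point is 1 *Zbtb16*+ *Bcl11b*+ cell, by genotype and experiment, and the y axis is the natural log of 1 plus its reads per 10000 for *Gata3*, *Il17rb*, *Icos* or *Pdcd1*. Black bars are medians and the dotted line is the value of 1: the *Il17rb* points split between the baseline and values of up to 4.02, while the median of *Gata3* lies above the line in all 4 groups, from 1.58 to 2.33.

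*Il17rb* and *Icos* went together within these cells, whereas *Il17rb* and *Pdcd1* did not. Spearman's rho between the *Il17rb* and *Icos* values over single cells was 0.589 in WT cells of experiment 1 (n = 33), 0.564 in WT cells of experiment 2 (n = 69) and 0.311 in G3SEKO cells of experiment 2 (n = 101). Between *Il17rb* and *Pdcd1* it was -0.099, -0.184 and -0.009 in the same groups, and between *Il17rb* and *Gata3* it was 0.096, 0.042 and 0.027. The cells of a group share a library, and the rho between *Il17rb* and the cell's total reads was 0.098, 0.032 and -0.026, so these values are given as descriptions. Both *Il17rb* and *Pdcd1* reached a value of 1 in 9 of 33 WT cells of experiment 1, 13 of 69 WT cells of experiment 2 and 32 of 101 G3SEKO cells. Neither did in 6 of 33, 15 of 69 and 13 of 101 cells.

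Summing the reads of the cells on each side of the *Il17rb* limit showed which other genes differed. In WT cells *Icos* stood at 774 CPM (a gene's reads per 1000000 reads of the sum) in the 10 *Il17rb*+ cells against 244 CPM in the 23 others of experiment 1, and at 1254 against 649 CPM in the 34 and 35 cells of experiment 2. *Hes1*, a target of Notch signalling, went the other way, with 55.1 against 273 CPM in experiment 1 and 59.5 against 170 CPM in experiment 2. The chemokine receptor gene *Cxcr5* was likewise lower in the *Il17rb*+ cells, at 39.3 against 166 CPM and 41.2 against 97.9 CPM. In G3SEKO cells the *Cxcr5* contrast was 0.173 against 79.1 CPM in experiment 1 and 1.49 against 81.2 CPM in experiment 2, and 1 cell gave 98.9% of the G3SEKO *Cxcr5* reads in experiment 1. *Kit*, the stem cell factor receptor gene of early progenitors, was also lower on the *Il17rb*+ side, at 161 against 307.4 CPM and 159 against 222 CPM in WT cells. *Ccr9*, a gut-homing receptor gene, was higher there in WT cells, at 42.4 against 9.83 CPM and 167 against 91.2 CPM, while in G3SEKO cells it stood at 368 against 7.16 CPM in experiment 1 and, the other way, at 62.9 against 73.0 CPM in experiment 2. *Gata3* showed no common direction, with 1407 against 1040 CPM in experiment 1 and 861 against 925 CPM in experiment 2. These sums follow a split of single cells within a library and were not tested.

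**Figure D3:**
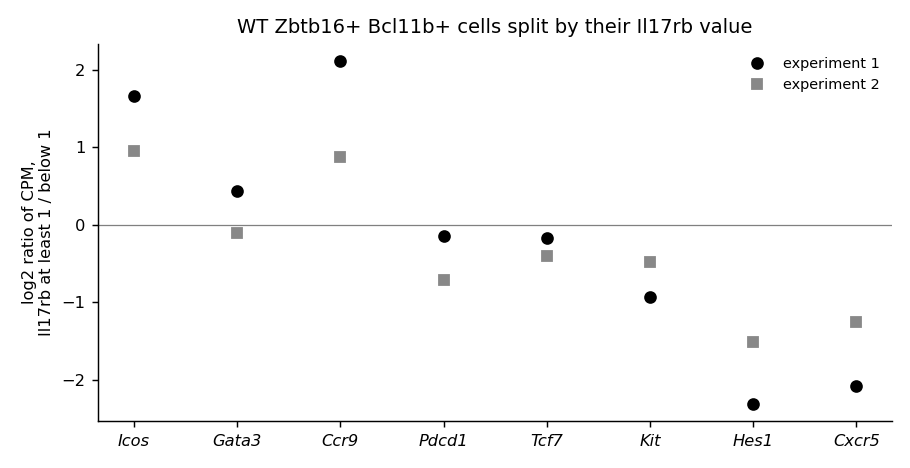
Log2 ratio of summed CPM between WT *Zbtb16*+ *Bcl11b*+ cells with an *Il17rb* value of at least 1 and those under 1 (10 and 23 cells in experiment 1, circles, and 34 and 35 cells in experiment 2, squares) for 8 genes. *Icos* and *Ccr9* lie above 0 and *Pdcd1*, *Tcf7*, *Kit*, *Hes1* and *Cxcr5* below 0 in both experiments, while *Gata3* lies on either side of it.

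The first comparison set the *Zbtb16*+ *Bcl11b*+ cells against the ILC progenitors, which differ from them by the *Bcl11b* limit alone (63 and 159 WT cells), and asked what else accompanied *Bcl11b*. No gene passed the adjusted threshold among 16061 tested with edgeR's quasi-likelihood test on 4 sums of WT cells with the experiment as a block (0.0% called). At an unadjusted p under 0.05 there were 327 genes higher (2.04%) and 514 lower (3.2%). DESeq2 on the same sums called 63 genes higher (0.392%) and 108 lower (0.672%), and edgeR on the 6402 genes with a mean of at least 30 CPM, a filter chosen after seeing the data, called 29 (0.453%) and 48 (0.75%).

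Among genes of the ILC2 programme, *Il17rb* stood at 183 and 624 CPM in the *Zbtb16*+ *Bcl11b*+ cells of the 2 experiments and at 80.6 and 162 CPM in the ILC progenitors. Within each experiment the *Zbtb16*+ *Bcl11b*+ cells were the higher (log2 change +1.60 ± 0.25 SE, unadjusted p = 0.00166, edgeR adjusted p = 0.931). *Icos* stood at 413 and 975 CPM against 246 and 530 CPM (log2 change +0.85 ± 0.14 SE). *Gata3* stood at 1157 and 890 CPM against 642 and 704 CPM (log2 change +0.63 ± 0.18 SE, unadjusted p = 0.0171). *Pdcd1* stood at 520 and 453 CPM against 213 and 450 CPM, nearly equal in experiment 2. DESeq2 called *Il17rb* and *Icos*, and not *Gata3* or *Pdcd1*. On the list of early ILC2 genes 7 of 10 had positive log2 changes and the median was 0.43, beside -0.03 over all genes tested.

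*Eomes*, a master factor of NK cells, stood at 11.0 and 0.411 CPM against 203 and 52.1 CPM in ILC progenitors. In the WT *Zbtb16*+ *Bcl11b*+ cells of experiment 1 its hashtag values were 49.99 (A0307), 0.659 (A0308) and 0.278 CPM (A0309). *Cd7*, a surface glycoprotein of early lymphoid cells, stood at 28.1 and 3.90 CPM against 226 and 156 CPM. *Nrp1*, known from lymphoid tissue inducer cells, stood at 1.27 and 6.57 CPM against 62.1 and 58.6 CPM, and in experiment 2 a single *Zbtb16*+ *Bcl11b*+ cell supplied 96.9% of its reads. *Zbtb7b*, which encodes ThPOK, stood at 27.3 and 11.5 CPM against 118 and 65.3 CPM. On the NK cell and ILC1 list, genes at or near 0 in the *Zbtb16*+ *Bcl11b*+ cells, such as *Tbx21* at 0.101 and 0 CPM against 23.0 and 34.4 CPM, entered the test through the ILC progenitors, so no count over that list is given. Its chemokine gene *Ccl5* stood higher, at 1812 and 759 CPM against 1270 and 362 CPM, and *Nkg7* at 423 and 380 CPM against 415 and 398 CPM. On the Notch and T lineage list 12 of 18 tested genes had positive changes, with 3 at an unadjusted p under 0.05 on the higher side and 1 on the lower. Among them *Thy1*, a surface glycoprotein of T cells and ILCs, stood at 536 and 498 CPM against 243 and 306.5 CPM, and *Trbc1*, a T cell receptor β constant gene, at 3191 and 2485 CPM against 2334 and 2107 CPM.

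On the homing receptor list 8 of 18 tested genes had positive changes and 10 negative ones, with 1 at an unadjusted p under 0.05 on the higher side and 3 on the lower, and a median of -0.073. Some chemokine receptor genes had lower values and others higher ones. *Cxcr4* stood at 35.3 and 27.1 CPM against 13.1 and 11.8 CPM, and *Ccr9* at 20.2 and 132 CPM against 12.01 and 61.5 CPM. *Ccr2* stood at 171 and 244 CPM against 640 and 711 CPM (log2 change -1.69 ± 0.17 SE, unadjusted p = 0.000243, edgeR adjusted p = 0.931). *Cxcr5* stood at 125 and 67.3 CPM against 299 and 302.4 CPM, and *Ccr7* at 4.62 and 20.5 CPM against 70.5 and 133 CPM. The transcription factor gene *Tcf7* (TCF-1) stood at 1052 and 982 CPM against 1683 and 2051 CPM (log2 change -0.83 ± 0.14 SE). DESeq2 called *Ccr2*, *Cxcr5*, *Ccr7*, *Tcf7*, *Cd7*, *Nrp1* and *Zbtb7b* as lower and *Ccl5* and *Thy1* as higher. It also called *Eomes* lower, but this gene entered the test through the ILC progenitors, so that call is a description. *Kit* at 261 and 188 CPM against 316 and 260 CPM and *Hes1* at 204 and 110 CPM against 265 and 139 CPM lay closer together, with unadjusted p of 0.143 and 0.197.

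**Figure D4:**
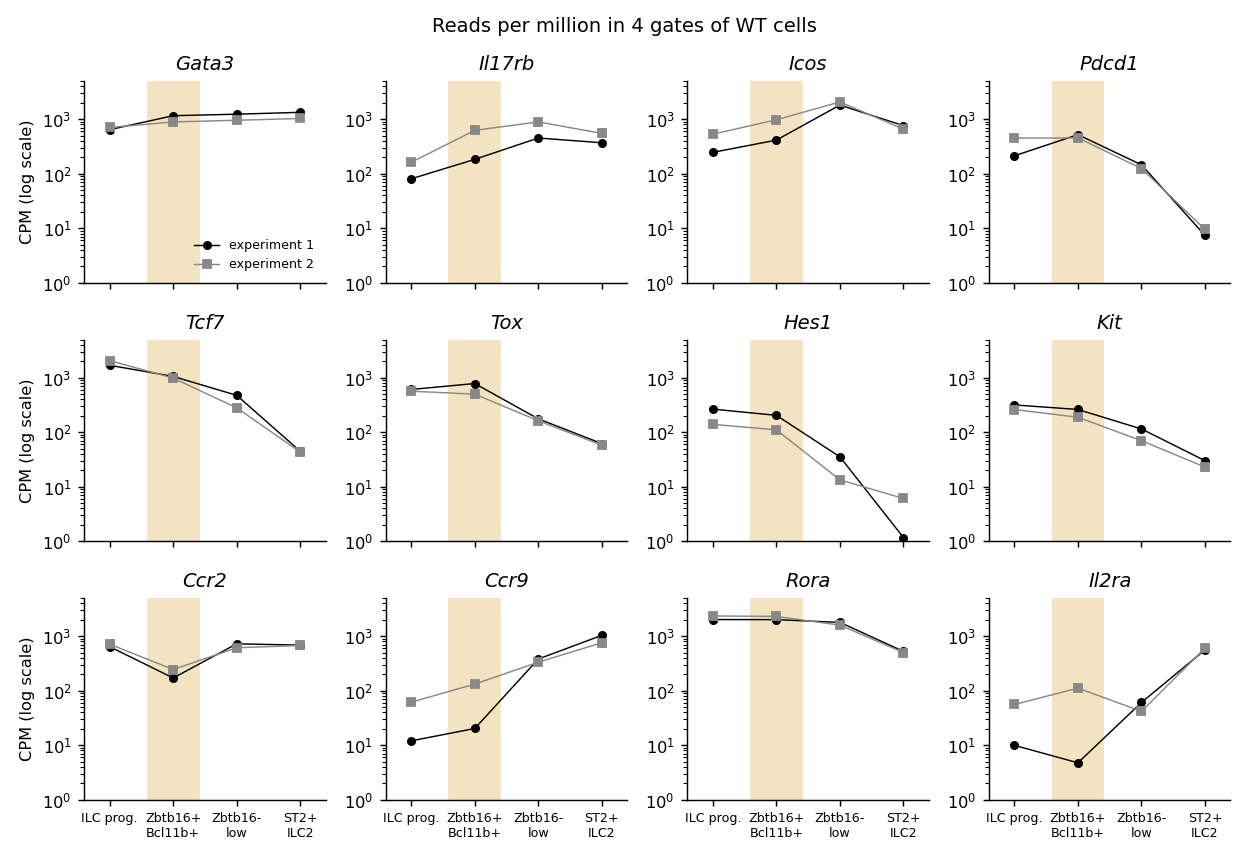
CPM (log scale) of 12 genes in 4 gates of WT cells, summed over the cells of each gate, with circles for experiment 1 and squares for experiment 2, and the *Zbtb16*+ *Bcl11b*+ cells shaded. The gates are in an order set by hand: *Ccr2* has its lowest point in the shaded gate in both experiments (171 and 244 CPM), and *Pdcd1*, *Tox*, *Kit* and *Tcf7* lie higher there than in the 2 gates to its right.

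The second comparison was with the *Zbtb16*-low precursors, cells with *Icos* and *Il18r1* at 1 or more and *Zbtb16* under 1 (43 and 104 WT cells). No *Bcl11b* limit applied to the precursors, and *Icos* and *Il18r1* were not tested because they chose them. Of 15554 genes tested, edgeR called 1 (0.00643%), with 477 higher (3.07%) and 516 lower (3.32%) at an unadjusted p under 0.05. DESeq2 called 171 higher (1.1%) and 165 lower (1.06%), and edgeR on genes with a mean of at least 30 CPM called 23 (0.361%) and 7 (0.11%). The called gene was *Igf2*, an imprinted growth factor gene, at 814 and 104 CPM against 0.77 and 0 CPM (edgeR adjusted p = 0.0182). A single cell supplied 99.9% of its reads in experiment 1 and another 99.0% in experiment 2, so the call describes 1 cell in each experiment. 

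Several genes of the ILC progenitor list had higher values in the *Zbtb16*+ *Bcl11b*+ cells than in the *Zbtb16*-low precursors, in both experiments. *Pdcd1* stood at 520 and 453 CPM against 145 and 124 CPM (log2 change +1.87 ± 0.22 SE, unadjusted p = 0.000193, edgeR adjusted p = 0.392). *Tox*, an HMG-box factor needed for ILC development, stood at 779 and 497 CPM against 175 and 162 CPM, and *Tcf7* at 1052 and 982 CPM against 474 and 280 CPM. *Kit* stood at 261 and 188 CPM against 114 and 69.7 CPM. On that list 7 of 17 tested genes had positive changes and 10 negative ones, with 6 at an unadjusted p under 0.05 on the higher side and 3 on the lower, and a median of -0.105. Outside that list, *Hes1* stood at 204 and 110 CPM against 35.3 and 13.3 CPM (log2 change +2.80 ± 0.38 SE). *Sox4*, an SRY-related factor of early lymphoid cells, stood at 709 and 440 CPM against 141 and 194 CPM. On the list of ILC specification factors 11 of 23 tested genes had positive changes, with 8 at an unadjusted p under 0.05 on the higher side and 1 on the lower, with a median of -0.02 beside -0.004 over all genes.

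The T cell and NK cell lists were mixed. On the Notch and T lineage list 11 of 18 tested genes had positive changes, with 4 at an unadjusted p under 0.05 on the higher side and 1 on the lower. No count over the NK cell and ILC1 list is given, for the reason given above for *Tbx21*, which stood at 48.5 and 2.399 CPM in the precursors. *Ccl5* stood at 1812 and 759 CPM against 356 and 169 CPM (log2 change +2.28 ± 0.18 SE, unadjusted p = 1.82e-05, edgeR adjusted p = 0.141). *Trat1*, which encodes an adaptor of the T cell receptor complex, stood at 403 and 470 CPM against 199 and 168 CPM. *Trbc1*, which can be transcribed without rearrangement, stood at 3191 and 2485 CPM against 1665 and 1401 CPM. DESeq2 called *Ccl5*, *Trat1* and *Trbc1*, as it did *Pdcd1*, *Tox*, *Tcf7*, *Kit*, *Hes1* and *Sox4*.

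*Ccr9* stood at 20.2 and 132 CPM against 380 and 333 CPM in the precursors, *Cxcr6* at 70.3 and 115 CPM against 397 and 226 CPM, and *Ccr2* at 171 and 244 CPM against 722 and 611 CPM. *Tnfrsf25*, which encodes the receptor for TL1A, stood at 28.9 and 46.0 CPM against 128 and 149 CPM. *Mcm2*, a subunit of the replicative helicase, stood at 30.2 and 21.4 CPM against 86.3 and 194 CPM, and *Hmgb2*, a chromatin protein gene that is on the proliferation list with *Mcm2*, at 194 and 109 CPM against 377 and 193 CPM. No count over that list is given, since genes near 0 in the *Zbtb16*+ *Bcl11b*+ cells, such as *Ccnb2* at 0.234 and 0.205 CPM, entered the test through the precursors. Of 17 tested genes of the mature ILC2 list edgeR called none, and 3 had an unadjusted p under 0.05, all on the lower side, while DESeq2 called *Cysltr1*, *Ptpn13* and *Ccr9* lower, and also *Csf2*, which at 0.134 and 0 CPM entered the test through the precursors.

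*Gata3* stood at 1157 and 890 CPM in the *Zbtb16*+ *Bcl11b*+ cells and at 1233 and 954 CPM in the *Zbtb16*-low precursors (log2 change -0.07 ± 0.15 SE, unadjusted p = 0.630). *Il17rb* was lower in the former, at 183 and 624 CPM against 451 and 890 CPM (log2 change -0.88 ± 0.24 SE, unadjusted p = 0.0117, edgeR adjusted p = 0.643). *Rora*, which encodes RORα, stood at 2003 and 2294 CPM against 1784 and 1589 CPM.

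The third comparison was with ST2+ ILC2s (360 and 3332 WT cells), the most mature cells of the sort. Here 244 genes were higher (1.23%) and 192 lower (0.968%) of 19838 tested in the *Zbtb16*+ *Bcl11b*+ cells, 2.2% in all. DESeq2 called 799 (4.03%) and 786 (3.96%). The edgeR counts rested on treating the 2 gates of an experiment as a pair, since without the block on the experiment edgeR called only 6 higher (0.0302%) and 1 lower (0.00504%). The median log2 change over all genes was -0.18.

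On the list of ILC progenitor genes 7 of 17 tested were called higher (*Pdcd1*, *Tox*, *Tox2*, *Tcf7*, *Kit*, *Ikzf3* and *Pecam1*) and 2 lower (*Itgb7* and *Cxcr6*). *Pdcd1* stood at 520 and 453 CPM against 7.37 and 9.497 CPM (log2 change +5.82 ± 0.33 SE, edgeR adjusted p = 0.000134). *Tcf7* rose from 44.5 and 43.0 CPM in ST2+ ILC2s to 1052 and 982 CPM (log2 change +4.50 ± 0.25 SE, edgeR adjusted p = 0.000134). *Tox2* stood at 488 and 505 CPM against 8.52 and 2.60 CPM, and *Kit* at 261 and 188 CPM against 30.01 and 22.9 CPM. On the other list 8 of the 23 tested ILC specification factors were called higher and none lower, among them *Rora* at 2003 and 2294 CPM against 525 and 499 CPM and *Sox4* at 709 and 440 CPM against 67.3 and 32.0 CPM. The lists overlap, since *Tcf7*, *Tox*, *Tox2* and *Ikzf3* are on both.

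Of 19 tested genes of the Notch and T lineage list, 5 were called higher (*Hes1*, *Cd28*, *Trat1*, *Trbc1* and *Lck*) and 1 lower (*Zap70*), and of 9 tested genes of the NK cell and ILC1 list 3 were called higher (*Il2rb*, *Nkg7* and *Ccl5*) and none lower. *Hes1* stood at 204 and 110 CPM against 1.17 and 6.08 CPM, and *Cd28*, the co-stimulatory receptor gene of T cells, at 73.9 and 54.4 CPM against 1.65 and 0.250 CPM. *Trat1* stood at 403 and 470 CPM against 18.6 and 9.43 CPM (log2 change +5.0 ± 0.36 SE, edgeR adjusted p = 0.000401), and *Trbc1* at 3191 and 2485 CPM against 211 and 268 CPM. *Nkg7*, a cytotoxic granule gene, stood at 423 and 380 CPM against 9.43 and 6.39 CPM (log2 change +5.65 ± 0.31 SE, edgeR adjusted p = 0.000134), and *Ccl5* at 1812 and 759 CPM against 139 and 77.4 CPM.

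Of the 20 mature ILC2 genes 19 were tested, and 13 were called lower and none higher. This count is a description, since listed genes at or near 0 in the *Zbtb16*+ *Bcl11b*+ cells, such as *Areg* at 0 and 0 CPM against 7.90 and 15.1 CPM, entered the test through the ST2+ ILC2s. Among called genes with reads in both gates, *Zfp36l1* stood at 317 and 367 CPM against 1041 and 873 CPM. *Il2ra*, the CD25 gene, stood at 4.76 and 111 CPM against 560 and 603 CPM (edgeR adjusted p = 0.0459), *Klrg1* at 0.201 and 2.05 CPM against 18.6 and 31.5 CPM, and *Rnf128* at 1.27 and 59.7 CPM against 454 and 566 CPM. *Ccr9* stood at 20.2 and 132 CPM against 1033 and 755 CPM and *Ly6a*, which encodes Sca-1, at 11.7 and 218 CPM against 917 and 1371 CPM. For *Il2ra*, *Rnf128* and *Ly6a* the 2 experiments gave unequal contrasts, each smaller in experiment 2. *Cysltr1*, the leukotriene receptor gene, stood at 3.42 and 129 CPM against 344 and 359 CPM and did not pass (edgeR adjusted p = 0.124).

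Unlike *Pdcd1*, the genes *Gata3*, *Icos* and *Il17rb* did not pass against ST2+ ILC2s. *Gata3* stood at 1157 and 890 CPM against 1334 and 1029 CPM (log2 change -0.24 ± 0.19 SE, edgeR adjusted p = 0.689). *Icos* stood at 413 and 975 CPM against 760 and 656 CPM and *Il17rb* at 183 and 624 CPM against 369 and 549 CPM, each on opposite sides of the ST2+ ILC2s in the 2 experiments.

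Receptor lists were mixed. Of 22 tested cytokine receptor genes 1 was called higher (*Il2rb*) and 3 lower (*Il2ra*, *Il9r* and *Il6st*), and of 17 checkpoint and co-stimulatory receptor genes 2 were higher (*Pdcd1* and *Cd28*) and 3 lower (*Cd200r1*, *Tnfrsf18* and *Tnfrsf25*). Of 18 homing receptor genes 2 were higher, *Cxcr5* among them, and 4 lower, *Itgb7*, *Ccr2*, *Ccr9* and *Cxcr6*. *Cxcr5* stood at 125 and 67.3 CPM against 0.490 and 0.574 CPM. Of 10 early ILC2 genes *Rora* and *Hes1* were higher and *Ly6a* and *Il9r* lower. Of 15 immediate early genes, which respond to cell handling as well as to stimulation, 4 were lower (*Junb*, *Jund*, *Zfp36* and *Klf6*) and none higher. The share of these genes in the difference was not tested. Of 16 proliferation genes 1, *Stmn1*, was called higher.

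Beyond the lists, the genes with the largest log2 changes past the threshold included *Igfbp7*, which encodes a secreted binding protein, at 149 and 133 CPM against 0.353 and 0.258 CPM (log2 change +8.82 ± 0.47 SE, edgeR adjusted p = 0.000134), and *Fam71b* at 30.4 and 55.8 CPM against 0.118 and 0.0441 CPM. *Fam71b* was near 0 in the ST2+ ILC2s and entered the test through the *Zbtb16*+ *Bcl11b*+ cells, so its place here is a description. *Fgf3*, a fibroblast growth factor gene named after its values were seen, stood at 99.9 and 69.8 CPM against 0.464 and 0.206 CPM. No single cell gave more than 36.5% of the reads of these 3 genes in an experiment. *Uchl1*, *Henmt1*, *Megf10* and *Tgfb3* were also among the largest, and for *Parm1* 1 cell gave 100% of the reads in each experiment. The genes with the largest changes on the lower side were at or near 0 in the *Zbtb16*+ *Bcl11b*+ cells and entered the test through the ST2+ ILC2s, so their order is a description. Among them were *Csf1*, the macrophage growth factor gene, at 0.168 and 0.205 CPM against 52.7 and 63.8 CPM, with *Calhm6*, *Ninj1*, *Sh3pxd2a*, *Plxna1*, *Ppm1j* and *Wipf3* at no more than 0.205 CPM in the *Zbtb16*+ *Bcl11b*+ cells. *Unc5a* had 0 reads there in both experiments and 19.5 and 15.01 CPM in ST2+ ILC2s, at least 201-fold lower by the floor of 3 counts over the group.

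Markers of other cell types were at or near 0, apart from a few genes that ILC progenitors share. Of 9 T cell genes 3 or 4 reached 10 CPM in a group, and *Trbc1* gave most of a summed level of 3100 to 3895 CPM, while the *Cd3d* value reached 1 in none of the 212 cells and *Trac* did so in 0 to 2 cells of a group. Of the NK cell and ILC1 list 3 to 5 of 12 listed genes reached 10 CPM, with a summed level of 1198 to 2396 CPM led by *Ccl5*. *Eomes* reached a value of 1 in 1 WT cell of experiment 1. Of 7 B cell genes only *Cd79b* reached 10 CPM (38.6 to 86.2 CPM), and of 9 myeloid genes none did (summed level 0.715 to 18.6 CPM). Of 4 mast cell and basophil genes only *Cpa3* did (17.2 to 180 CPM). Of 7 erythroid genes at most 1, *Car2*, did (summed level 6.36 to 29.5 CPM), and the 16 proliferation genes summed to 506 to 778 CPM. The summed level of the uncommitted progenitor list was 24.8 to 52.6 CPM, led by *Meis1*. Of the 7 listed genes of the ILC3 and lymphoid tissue inducer list 3 to 6 reached 10 CPM, with a summed level of 195 to 468 CPM.

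The last comparison was between genotypes within the *Zbtb16*+ *Bcl11b*+ cells, 33 and 69 WT against 9 and 101 G3SEKO cells, and asked how the genotypes differed within this gate. *Gata3*, the gene upstream of the deletion, stood at 946 and 573 CPM in G3SEKO and at 1157 and 890 CPM in WT cells, lower in both experiments (log2 change -0.42 ± 0.19 SE, unadjusted p = 0.0898, edgeR adjusted p = 1). By hashtag in experiment 1 it stood at 778, 1843 and 895 CPM in G3SEKO and at 1133, 1755 and 789 CPM in WT cells, so the genotypes overlapped. In single cells the median *Gata3* value was 2.33 in both genotypes of experiment 1, and 1.58 in G3SEKO against 1.98 in WT cells of experiment 2. The deleted region lies outside the gene, so these levels do not check the deletion itself.

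No gene passed among 13794 tested with edgeR (0.0%), which does not show that the genotypes were alike, with 134 higher (0.971%) and 146 lower (1.06%) at an unadjusted p under 0.05. DESeq2 called 21 higher (0.152%) and 4 lower (0.029%), and edgeR on cells thinned to the minimum total of experiment 2 called 2 (0.0293%) and 1 (0.0147%). *Tcf7* stood at 1065 and 1124 CPM in G3SEKO against 1052 and 982 CPM in WT cells, and *Pdcd1* at 498 and 659 CPM against 520 and 453 CPM. *Il17rb* stood at 442 and 502 CPM against 183 and 624 CPM and *Icos* at 736 and 883 CPM against 413 and 975 CPM, each with opposite directions in the 2 experiments. None of the 5 genes *Gata3*, *Tcf7*, *Pdcd1*, *Il17rb* and *Icos* passed.

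*Ccr2*, which encodes the receptor for the chemokine CCL2, stood at 990 and 772 CPM in G3SEKO and at 171 and 244 CPM in WT cells (log2 change +2.14 ± 0.32 SE, unadjusted p = 0.00229, edgeR adjusted p = 1), and both DESeq2 and edgeR on thinned cells called it. In experiment 2, *Ccr2* reached a value of 1 in 56 of 101 G3SEKO cells and 18 of 69 WT cells. By hashtag in experiment 1 the G3SEKO values were 848, 6.92 and 1650 CPM, from 6, 1 and 2 cells, and the WT values 294, 71.2 and 179 CPM, so the hashtag of a single cell was below all WT hashtags. Of the 4 WT gates the *Zbtb16*+ *Bcl11b*+ cells had the lowest *Ccr2* level, and the G3SEKO level lay near that of the G3SEKO ILC progenitors (940 and 902 CPM).

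For some of the other genes with an unadjusted p under 0.05, 1 cell gave most of the G3SEKO reads in experiment 1. *Klf2*, a factor that controls lymphocyte exit from tissues, stood at 294 and 116 CPM in G3SEKO against 39.6 and 28.1 CPM in WT cells, and 1 cell gave 79.2% of its G3SEKO reads in experiment 1. For *Tnfrsf25*, at 208 and 127 CPM against 28.9 and 46.0 CPM, 1 cell gave 97.7%, and with limits of 1.5 in place of 1 the log2 change was -1.32. *Il18r1* stood at 953 and 767 CPM against 567 and 576 CPM and *Tox2* at 1013 and 665 CPM against 488 and 505 CPM, with at most 29.1% and 27.7% of the G3SEKO reads of experiment 1 from 1 cell. *Cd96* was lower, at 16.0 and 39.8 CPM against 54.9 and 147 CPM. On the lists, 0 of 18 ILC progenitor genes and 0 of 10 early ILC2 genes were called, with median log2 changes of 0.47 and -0.20, and of 14 tested mature ILC2 genes edgeR and DESeq2 called none, with edgeR giving 1 at an unadjusted p under 0.05, on the lower side.

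**Figure D5:**
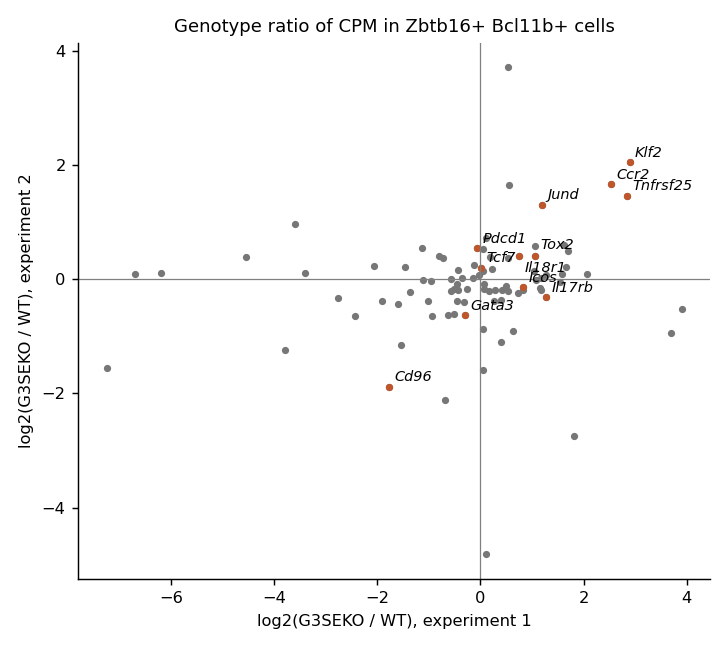
Log2 ratio of summed CPM, G3SEKO over WT, in *Zbtb16*+ *Bcl11b*+ cells of experiment 1 (x axis) and experiment 2 (y axis) for the 90 tested genes of the lists and of the naming rule with a mean of at least 30 CPM and reads in all 4 groups, with those described in the text in orange. *Ccr2* (+2.54 and +1.66), *Klf2*, *Tnfrsf25* and *Jund* lie at the upper right, *Cd96* at the lower left and *Gata3* (-0.29 and -0.63) just below the origin, and the spread is wider along the x axis.

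The genotype difference was compared with that in ILC progenitors by an interaction term over 8 sums. *Gata3* in ILC progenitors stood at 642 and 704 CPM in WT and 807 and 454 CPM in G3SEKO cells (log2 change -0.08 ± 0.31 SE), so its direction differed between experiments. The difference of the 2 log2 changes was -0.35 ± 0.42 SE for *Gata3* (unadjusted p = 0.438, edgeR adjusted p = 1), so the *Gata3* difference was not shown to differ between the gates. For *Ccr2* it was +1.61 ± 0.38 SE (unadjusted p = 0.00771, edgeR adjusted p = 1), after a change of +0.52 ± 0.19 SE in ILC progenitors. For *Icos* it was +1.03 ± 0.40 SE (unadjusted p = 0.0495), with 149 and 320 CPM in G3SEKO against 246 and 530 CPM in WT ILC progenitors. None of 15766 genes passed by edgeR (0.0%), 271 had an unadjusted p under 0.05 (1.72%), and DESeq2 called 5 higher (0.0317%) and 12 lower (0.0761%).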

How the data were processed

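The authors trimmed the TAS-Seq reads, mapped them to GRCm38 with Bowtie2 and deposited gene counts per cell, which are reads and not molecules; Seurat 4 is named in the submitters' processing notes, and the authors' hashtag calls stand in the cell names. The counts were used as deposited, and 102 columns without a genotype (doublets or no hashtag) were not used. A cell needed at least 83012 reads (experiment 1) or 6733 reads (experiment 2). No further doublet caller was run. Reads were summed per gate, genotype and experiment, 4 sums per comparison of at least 5 cells each, and tested with edgeR 4.0.16 (quasi-likelihood, TMM, filterByExpr, Benjamini-Hochberg over all genes tested) in R 4.3.3, with the experiment as a block, because both groups of each comparison come from the same library. Genes used by a gate were not tested. A gene was called at an adjusted p under 0.05. DESeq2 1.42.0, RLE size factors, no filter, no block, sums per hashtag, thinned cells and other limits were the alternatives, and the tests were run on simulated data first. The members, gene lists and naming rule (members' markers, the 18 lists, and the largest changes past the threshold) were chosen with earlier results of these data known. The 26421 genes of both tables were used. Gene positions are from the GENCODE annotation of GRCm38. Some genes of the lists and of the naming rule are not reported here.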

Additional observations from a re-analysis of the deposited data

Results flagged for a closer look

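The authors' hashtag calls marked 101 cells as doublets, which were left out of all comparisons. Of these, 2 met every limit of the *Zbtb16*+ *Bcl11b*+ rule. A doublet joins the reads of separate cells, and whether these 2 hold a cell of this kind was not tested. No group held 4 to 10 samples, so no sample was tested for lying far from the others.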

How the results depend on the processing

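With 2 experiments each comparison left 1 residual degree of freedom per gene, and the counts of calls differed between tools and filters. The cause of each change below was not tested. Against ILC progenitors the calls went from 0 to 63 higher and 108 lower with DESeq2, 12 and 16 with thinned cells and 29 and 48 with a mean of at least 30 CPM. Against *Zbtb16*-low precursors they were 171 and 165 with DESeq2, 21 and 8 with no filter, 38 and 19 with thinned cells and 23 and 7 with a mean of at least 30 CPM, and the 1 call (*Igf2*) became 0 without the block, with sums per hashtag and with limits of 1.5 or 0.5. Against ST2+ ILC2s they were 799 and 786 with DESeq2, 635 and 857 with no filter, 94 and 43 with sums per hashtag, and 6 and 1 without the replicate block, and the lower count became 116 with thinned cells, 418 with limits of 1.5 and 377 with a mean of at least 30 CPM. Between genotypes they were 21 and 4 with DESeq2 and 2 and 1 with thinned cells. Without the block the counts against ILC progenitors and between genotypes stayed at 0, and the interaction for *Gata3* was -0.40.

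The share of *Zbtb16*+ *Bcl11b*+ cells moved with the limits, to 2.79% (WT, experiment 1), 0.838% (WT, experiment 2) and 5.87% (G3SEKO, experiment 2) at 1.5 and to 1.85% and 12.2% in experiment 2 at 0.5, to 13.95% (6 of 43 cells) for G3SEKO of experiment 1 both at 1.5 and after thinning, and to 6.93% for G3SEKO of experiment 2 in cells chosen again after thinning. Among the cells so chosen, the share of G3SEKO cells with an *Icos* value of at least 1 in experiment 1 became 33.3%, or 2 of 6 cells. Log2 changes turned sign for *Hes1* against ILC progenitors (0.20 at 1.5), *Gata3* against *Zbtb16*-low precursors (0.12 by hashtag, 0.28 at 1.5), *Icos* against ST2+ ILC2s (0.16 thinned, 0.14 at 0.5, 0.091 as the mean of each cell's CPM, and -0.88 to 0.57 over the experiments taken alone) and *Il17rb* there (-1.01 to 0.19 over the experiments). Between genotypes they did so for *Icos* (-0.27 thinned, -0.14 to 0.83 over the experiments), *Il17rb* (-0.096 thinned, -0.32 to 1.27 over the experiments), *Pdcd1* (-0.064 to 0.54 over the experiments) and *Tnfrsf25* (-1.32 at 1.5). An experiment taken alone has no test, so its calls were not counted.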
